A study of Mus musculus with 12 samples.

Results

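The MHC class II genes described here are 7 genes of the antigen presentation pathway, chosen by name: H2-Aa, H2-Ab1, H2-Eb1, H2-DMa, H2-DMb1, Cd74 and Ciita. All 7 are among the 16411 genes of the deposited table, and all 7 passed the filter on low counts, which left 13191 genes. The series holds RNA-seq libraries of 6 mammary tumors and of 6 benign mammary tissues. Every sample came from a female mouse carrying the MMTV/neu-ndl-YD5 transgene, an activated form of HER2 driven by the MMTV promoter in mammary epithelium, on an FVB background, and the labels give no treatment. Benign tissue was mammary tissue of transgenic mice without a visible tumor, taken far from the tumor site, and tumors and benign samples came from different mice. The age of each mouse is not given in the sources used here. Samples are named as in the deposited table, T.1 to T.6 for tumors and B.1 to B.6 for benign tissue.

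MHC class II molecules display peptides from endocytosed proteins to CD4+ T cells. They are carried mainly by B cells, dendritic cells and macrophages, and other cells, epithelium included, can be made to express them by interferon gamma. An alpha and a beta chain (H2-Aa with H2-Ab1, H2-Eb1 with an E alpha chain) pair in the endoplasmic reticulum around the invariant chain, encoded by Cd74, which blocks the groove. In endosomes cathepsins degrade the invariant chain, and H2-DM, a dimer of H2-DMa and a DM beta chain such as H2-DMb1, exchanges the remaining fragment for peptide. Ciita is the coactivator that switches the whole set on. It does not bind DNA itself and is held at class II promoters by factors on the X box (RFX5, RFXANK, RFXAP and CREB) and on the Y box (NF-Y).

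The H2 members lie together on mouse chromosome 17 in the GRCm38 build: H2-DMa at chr17:34119541-34139101, H2-DMb1 at chr17:34153072-34160230, H2-Ab1 at chr17:34257689-34269419 and H2-Eb1 at chr17:34305867-34316674, all on the plus strand, and H2-Aa at chr17:34282744-34287823 on the minus strand. Ciita and Cd74 lie on other chromosomes, Ciita at chr16:10480059-10528418 on the plus strand. Promoter sequences of RefSeq on GRCm38.p6, running from 250 bases before to 50 bases after a gene's start, matched 4 of the 7 members. They were searched for ACNGATG, the core of the X1 box, and for ATTGG, the Y box core (CCAAT read on the other strand). Either-strand matches were common: 9.85% of all 32851 promoters held ACNGATG and 37.4% held the Y box core. The ordered arrangement, ACNGATG followed by ATTGG on the gene's strand with 15 to 30 bases between them, was present in 23 promoters, or 0.0700%. Of the members, H2-Eb1 and H2-DMb1 had it. The stretches around it are shown because these members were called in both fits given further on, in opposite directions. Their relatives H2-DMb2 and H2-Eb2 are set beside them, and H2-Aa stands for a member without the ordered pair. Capitals mark ACNGATG and ATTGG.
H2-Eb1, chr17:34305764-34305822, plus strand: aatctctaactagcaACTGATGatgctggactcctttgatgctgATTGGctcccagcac
H2-DMb1, chr17:34153085-34153144, plus strand: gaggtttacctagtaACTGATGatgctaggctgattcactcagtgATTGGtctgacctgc
H2-DMb2, chr17:34145114-34145173, plus strand: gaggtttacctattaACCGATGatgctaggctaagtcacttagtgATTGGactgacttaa
H2-Eb2, chr17:34325531-34325589, plus strand: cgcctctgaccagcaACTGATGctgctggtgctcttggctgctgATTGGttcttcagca
H2-Aa, chr17:34287857-34287915, minus strand: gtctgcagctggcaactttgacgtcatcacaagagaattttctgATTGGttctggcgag

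H2-Eb1 and H2-DMb1 shared the unbroken run AACTGATGATGCT, 13 bases across the X1 core, with 22 and 23 bases between the X1 and Y cores. Besides these 4 class II genes, the 23 genes with the arrangement included 5 class I genes (H2-D1, H2-M3, H2-Q4, H2-Q6 and H2-Q7). H2-Aa had the Y box core without the ordered pair, and held ACNGATG on the other strand, outside the stretch shown. H2-DMa had the Y box core alone in its window at chr17:34125268-34125567. In its window at chr17:34122582-34122881 it had neither core. The search held to the letters ACNGATG, so an X box with other letters would not be found, in H2-Aa or elsewhere. A match describes letters in these windows and no binding was measured.

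Values per sample are CPM, estimated counts scaled to library size with TMM factors, which correct for library composition. Library totals in benign tissue were 5240853 to 8170687 counts, and they ran from 6111393 to 8588567 in tumors. A floor of 3 counts corresponds to 0.329 to 0.556 CPM. Erbb2, the gene of the transgene's product, checked the labels: it lay between 44.8 and 73.7 CPM in benign tissue and between 1989 and 16634 CPM in tumors. Sample B.1 stood apart. Its summed CPM over 10 B cell markers was 993, against 1.78 to 9.12 in the other benign samples and 0.934 to 3.49 in tumors, and its Ptprc (CD45, on all nucleated leukocytes) was 399 CPM against 13.7 to 20.6 CPM and 13.3 to 28.5 CPM. The comparisons between tumors and benign tissue are therefore given with all 12 samples and again without B.1. The remaining benign samples were not uniform either. Summed CPM over 6 skeletal muscle markers was 45658, 30381 and 77575 in B.3, B.4 and B.6. It was 14.5, 22.3 and 323 in B.1, B.2 and B.5, and at most 120 in tumors. The effect of muscle content on the members' values was not tested. A gene was called at an adjusted p under 0.1 by edgeR's quasi-likelihood test, adjusted over all genes tested.

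With all 12 samples, 5 of the 7 members (H2-Aa, H2-Ab1, H2-Eb1, H2-DMa and Cd74) were lower in tumors, where 34.8% of all genes were called lower. H2-DMb1 was higher, as were 28.2% of all genes, and Ciita passed the test in neither direction. Without B.1, H2-Eb1 alone of the members was lower, against 32.4% of all genes, and H2-DMb1 alone was higher, against 31.5%. The median log2 fold change of all genes was -0.06 with 12 samples and 0.01 without B.1. In bulk tissue, fewer cells of a type and less RNA per cell cannot be told apart.

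**Figure D1:**
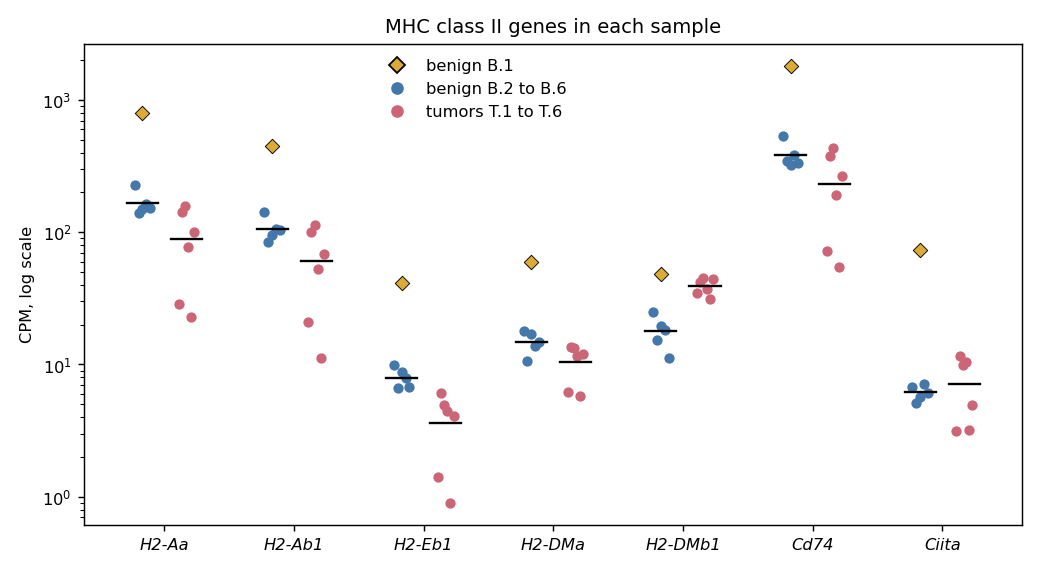
CPM on a log axis of each class II gene in B.1 (diamond), B.2 to B.6 (blue) and the 6 tumors (red), with black lines at the mean of B.2 to B.6 and of the tumors. B.1 is the highest benign sample for each gene, the tumors spread from 22.9 to 158 CPM for H2-Aa, and for H2-DMb1 the tumors lie above B.2 to B.6.

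H2-Aa, the A alpha chain, had 796 CPM in B.1 and 227, 139, 149, 164 and 153 CPM in B.2 to B.6. The tumors had 28.6, 143, 158, 77.4, 22.9 and 99.9 CPM in T.1 to T.6. Tumors T.2 and T.3 were within the range of benign tissue, the other 4 were below it, and T.1 and T.5 were far below. H2-Aa thus had a log2 fold change of -1.62 in tumors (adjusted p = 0.0284 by edgeR, standard error 0.57), and without B.1 it was -0.86 (standard error 0.44, adjusted p = 0.116), past the threshold no longer. Mean levels were 166 ± 35.0 CPM in benign tissue without B.1 (SD, n = 5) and 88.3 ± 56.5 CPM in tumors (SD, n = 6).

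H2-Ab1, the A beta chain that pairs with H2-Aa, had 450 CPM in B.1, 84.3 to 143 CPM in B.2 to B.6 and 20.9, 99.8, 114, 52.5, 11.1 and 68.6 CPM in T.1 to T.6. The order of the tumors was that of H2-Aa, with T.3 highest and T.5 lowest, 10.2-fold apart. H2-Ab1 had a log2 fold change of -1.42 (standard error 0.57, adjusted p = 0.0494) with 12 samples and -0.76 (standard error 0.48, adjusted p = 0.198) without B.1. Without T.1 the call was lost as well (adjusted p = 0.106).

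H2-Eb1, the E beta chain, had 41.7 CPM in B.1 and 9.91, 6.60, 8.73, 7.87 and 6.75 CPM in B.2 to B.6. The tumors had 1.40, 6.05, 4.94, 4.45, 0.895 and 4.06 CPM in T.1 to T.6. All 6 tumors were below all 6 benign samples, a separation in this direction that 21.2% of all genes showed. Across the 12 samples its log2 fold change came to -1.89 (standard error 0.57, adjusted p = 0.0131), and to -1.08 without B.1 (standard error 0.41, adjusted p = 0.0413). This was the lowest fold change of the 7 members in both fits, and the ratio of the benign mean without B.1 to the tumor mean was 2.19. Counts behind these values ran from 7 to 225.

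Cd74, the invariant chain, had 1815 CPM in B.1, 531, 344, 323, 382 and 333 CPM in B.2 to B.6, and 72.5, 380, 436, 191, 54.6 and 265 CPM in T.1 to T.6. Again T.1 and T.5 were lowest and 4 tumors lay below the benign range. Cd74 had a log2 fold change of -1.41 (standard error 0.59, adjusted p = 0.0559), and of -0.67 (standard error 0.47, adjusted p = 0.248) without B.1. The call was also lost when T.1, T.4 or T.5 was left out, with adjusted p from 0.1003 to 0.116.

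H2-DMa, the alpha chain of the peptide exchange factor, had 59.8 CPM in B.1, 10.6 to 17.8 CPM in B.2 to B.6 and 5.75 to 13.6 CPM in tumors (median 11.8 CPM). Only T.1 and T.5 were below the benign range. For H2-DMa the fold change in log2 was -1.09 (standard error 0.42, adjusted p = 0.0403), and -0.46 without B.1 (standard error 0.26, adjusted p = 0.157). The annotated gene overlaps Brd2 on the opposite strand, and whether the counting used strand is not given in the sources used here.

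H2-DMb1, the beta chain that pairs with H2-DMa, went the other way. It had 48.5 CPM in B.1, 25.1, 15.4, 19.6, 18.2 and 11.2 CPM in B.2 to B.6, and 34.6, 42.2, 45.3, 37.0, 31.5 and 44.3 CPM in T.1 to T.6. All 6 tumors were above B.2 to B.6, as in 18% of all genes, and none was above B.1. In log2, the fold change was 0.77 (standard error 0.29, adjusted p = 0.0378) with 12 samples and 1.17 (standard error 0.20, adjusted p = 0.000327) without B.1. Mean levels were 17.9 ± 5.14 CPM in benign tissue without B.1 (SD, n = 5) and 39.1 ± 5.63 CPM in tumors (SD, n = 6), and the tumors were within 1.44-fold of each other.

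H2-DMb2 encodes a second DM beta chain, and 22.7% of the 50-base runs in H2-DMb1 transcripts occur in H2-DMb2 transcripts too, so the division of reads between them is uncertain. H2-DMb2 had 82.3 CPM in B.1, 4.79 to 9.86 CPM in B.2 to B.6 and 11.99 to 20.2 CPM in tumors. It was called higher without B.1 (log2 fold change 1.35, adjusted p = 0.000181) and was not called with 12 samples (-0.18, adjusted p = 0.832). Counted as 1 gene, a choice made after seeing the data, the pair had 131 CPM in B.1, 16.0 to 32.5 CPM in B.2 to B.6 and 46.5 to 62.5 CPM in tumors. The log2 fold change was then 0.41 (adjusted p = 0.450) with 12 samples and 1.23 (adjusted p = 0.000125) without B.1. The higher level in tumors therefore did not pass the test for the summed pair when B.1 was kept.

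Ciita, the coactivator, had 73.9 CPM in B.1, 6.81, 5.14, 5.70, 7.12 and 6.04 CPM in B.2 to B.6, and 3.11, 11.6, 9.87, 10.4, 3.20 and 4.94 CPM in T.1 to T.6. Tumors fell on both sides of B.2 to B.6, with 3 below all of them and 3 above. Its fold change in log2 was -1.27 (standard error 0.73, adjusted p = 0.155) with 12 samples and 0.27 (standard error 0.37, adjusted p = 0.556) without B.1, so the sign turned with 1 library. The gene overlaps Dexi on the opposite strand.

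**Figure D2:**
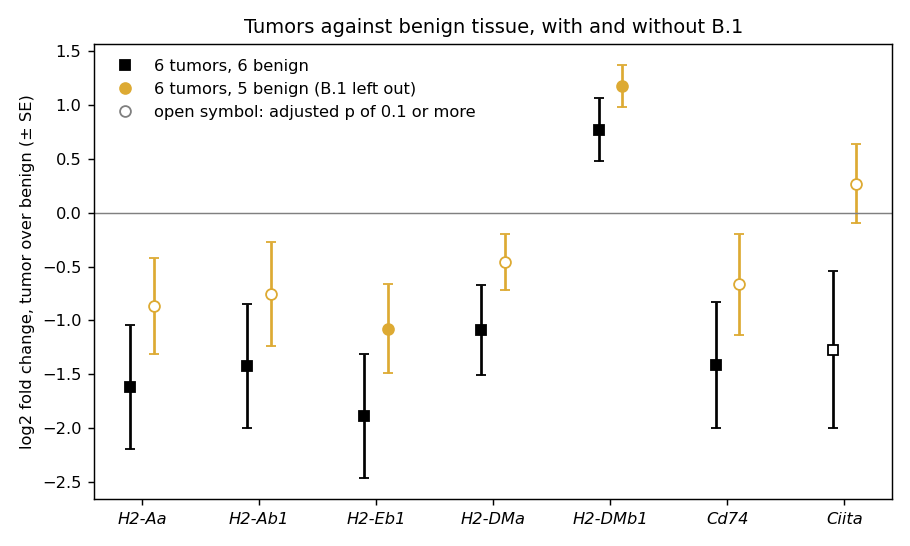
Log2 fold change of each class II gene in tumors over benign tissue with its standard error, with all 12 samples (squares) and without B.1 (circles); open symbols have an adjusted p of 0.1 or more. H2-Eb1 (-1.89 and -1.08) and H2-DMb1 (0.77 and 1.17) are filled in both fits, and Ciita changes sign from -1.27 to 0.27.

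B.1 did not exceed the other benign samples by one factor. Over the mean of B.2 to B.6 it was 12-fold for Ciita, 5.23-fold for H2-Eb1, 4.79-fold for H2-Aa, 4.74-fold for Cd74, 4.21-fold for H2-Ab1, 4.03-fold for H2-DMa and 2.71-fold for H2-DMb1. For H2-DMb2, which shares sequence with H2-DMb1, B.1 was 12.02-fold over that mean. Summed, H2-DMb1 and H2-DMb2 had 131 CPM in B.1 and 16.0 to 32.5 CPM in B.2 to B.6. The division of reads between them is uncertain, and so is the low factor of H2-DMb1 alone. The log2 ratio of Cd74 to Ciita was 4.61 in B.1, the lowest of the benign samples, whose mean was 5.67. In tumors the same log2 ratio ran from 3.98 to 5.67 with a mean of 4.78.

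Among themselves, H2-Aa, H2-Ab1 and Cd74 varied least: the log2 ratios of their 3 pairs had SDs of 0.11 to 0.16 over all 12 samples, against 0.60 for H2-Aa to H2-DMa and 0.33 for H2-Ab1 to H2-Eb1. The log2 ratio of H2-Aa to Cd74 was -1.20 ± 0.07 in benign tissue and -1.36 ± 0.08 in tumors (SD, n = 6 each), and its SD over all 12 samples was the smallest of the 21 pairs of members. Without B.1 its benign mean was -1.20 ± 0.08 (SD, n = 5). H2-DMa to H2-DMb1, the ratio of the chains of one dimer, was -0.15 ± 0.41 in benign tissue and -1.95 ± 0.37 in tumors, and without B.1 its benign mean was -0.24 ± 0.38. Of the 6 pairs with H2-DMb1, the group means differed by 1.46 to 2.60 in log2, against 0.07 to 1.14 for the other 15 pairs. Without B.1 these ranges were 1.12 to 2.45 and 0.04 to 1.33 and overlapped, since H2-DMb1 to Ciita then differed by 1.12 and H2-Eb1 to Ciita by -1.33. Pearson's r of log2 CPM over the 6 tumors was 0.846 to 0.999 for the 15 pairs without H2-DMb1 and 0.642 to 0.948 for the pairs with it. These are descriptions over few libraries that share their depth and makeup.

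Per kilobase of annotated exon, Cd74 stood first in both groups, at 228 ± 51.1 CPM per kb in benign tissue without B.1 (SD, n = 5) and 139 ± 93.5 CPM per kb in tumors (SD, n = 6). In benign tissue H2-Aa (43.8 ± 9.20) and H2-Ab1 (41.6 ± 8.61) followed and did not differ beyond their spread, then H2-DMb1 (10.7 ± 3.06). H2-DMa (4.30 ± 0.835) and H2-Eb1 (4.10 ± 0.715) were again within their spread, and Ciita was last (0.646 ± 0.0844). In tumors H2-Ab1 (23.8 ± 16.1), H2-DMb1 (23.3 ± 3.35) and H2-Aa (23.3 ± 14.9 CPM per kb) could not be ordered, above H2-DMa (3.03 ± 1.02), H2-Eb1 (1.87 ± 1.05) and Ciita (0.753 ± 0.404). H2-DMb1 thus stood level with the A chains in tumors and below them in benign tissue. Exon lengths merge all annotated isoforms, and the reference is not of the FVB strain, whose class II alleles can differ from it, so levels between genes are approximate.

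**Figure D3:**
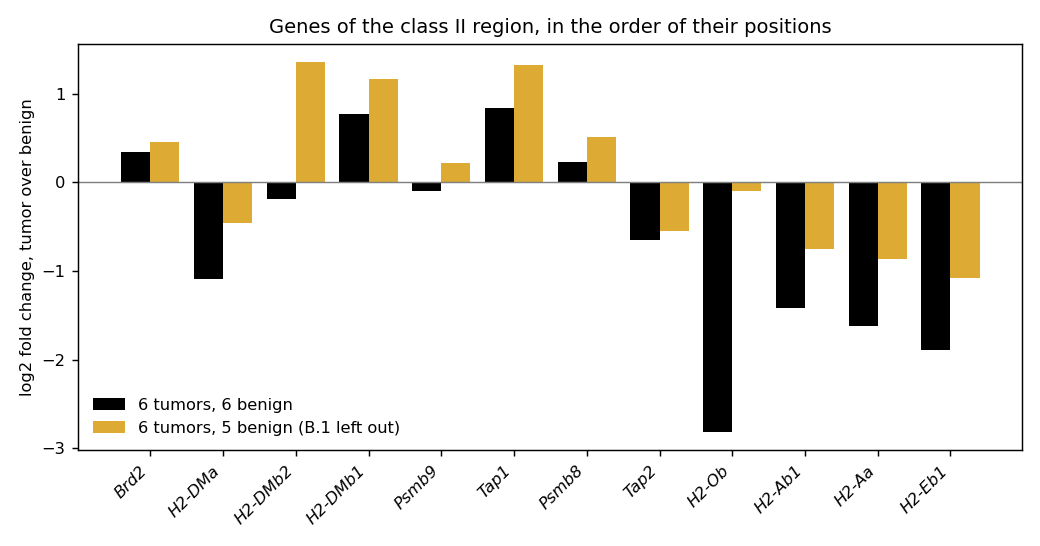
Log2 fold change in tumors over benign tissue of the tested genes of the class II region, left to right in the order of their positions, with 12 samples (black) and without B.1 (gold). H2-Ob changes from -2.82 to -0.10 and H2-DMb2 from -0.18 to 1.35 when B.1 is left out, while H2-Eb1 (-1.89 and -1.08) and Tap2 (-0.65 and -0.55) stay lower.

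Neighbours of the members in the class II region, described after their values were seen, did not move as a block. H2-Oa and H2-Ob, the chains of H2-DO, a modulator of H2-DM found mainly in B cells, had 30.9 and 79.1 CPM in B.1 and at most 4.79 CPM in any other sample. H2-Ob was called lower with 12 samples (log2 fold change -2.82, adjusted p = 0.0419) and not without B.1 (-0.10, adjusted p = 0.888). H2-Oa was not tested. Between the DM and the A genes lie class I genes, of which Tap2, a subunit of the peptide transporter, was lower in both fits (log2 fold change -0.65, adjusted p = 0.0305, and -0.55, adjusted p = 0.0807). Tap1, the other subunit, was not called with 12 samples (0.84, adjusted p = 0.193) and was called higher without B.1 (1.33, adjusted p = 0.0414).

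Of 12 further genes of class II loading, processing and turnover, 9 were tested. With 12 samples 3 were lower and 1 was higher, where 34.8% and 28.2% of all genes were. Without B.1 2 were lower and 3 were higher, where 32.4% and 31.5% of all genes were. The median log2 fold change was -0.23 with 12 samples and -0.10 without B.1. Ctsl and Ctsb, cathepsins, were lower in both fits (log2 fold change -1.19 and -1.17 with 12 samples). All 6 tumors lay below all benign samples for each, as in 21.2% of all genes. The ranges were 102 to 180 against 265 to 392 CPM for Ctsl, and 549 to 871 against 1214 to 1938 CPM for Ctsb. The third lower gene was H2-Ob. Cathepsins did not all move one way: Ctss, the cathepsin best known for cleaving the invariant chain in antigen-presenting cells, had a log2 fold change of 0.60 (adjusted p = 0.212) and was higher without B.1 (1.07, adjusted p = 0.0160), and Ctsd was not called (-0.23, adjusted p = 0.309).

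Of 18 genes of class II transcription and interferon signaling, 17 were tested. With 12 samples 5 were higher and 7 lower, where 28.2% and 34.8% of all genes were. Without B.1 6 were higher and 4 lower, where 31.5% and 32.4% of all genes were. Rfx5, the DNA-binding subunit of the X box factor, was higher at 0.44 (adjusted p = 0.0498) and at 0.66 without B.1. Irf4 (-4.74), a lymphocyte and dendritic cell factor, Ifngr1 (-2.14), a receptor chain for interferon gamma, and Irf8 (-1.30), a myeloid and B cell factor, were the lowest called genes. Unlike the B cell markers, Irf4 was not set apart in B.1. It had 25.8 CPM there and 3.56 to 26.3 CPM in B.2 to B.6. Without B.1, Irf4 and Ifngr1 were lower still past the threshold (-4.46 and -2.07) and Irf8 was not (-0.37, adjusted p = 0.186). Ifng, the gene of interferon gamma itself, was at or below 3 counts in every sample outside B.1.

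Costimulation genes were 4, of which 3 were tested and all 3 were lower with 12 samples: Icosl (-2.54), Cd40 (-2.39) and Cd86 (-1.004). Without B.1 only Icosl was lower (-1.51). Of all genes 34.8% were called lower with 12 samples, and 32.4% lower and 31.5% higher without B.1. Cd80 was not tested and lay at or below 4.45 CPM. Of 9 class I presentation genes, 1 was lower with 12 samples (Tap2), and without B.1 1 was lower and 1 higher. Nlrc5, the class I counterpart of Ciita, was not called (0.74, adjusted p = 0.357) and ran from 4.09 to 158 CPM across tumors.

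**Figure D4:**
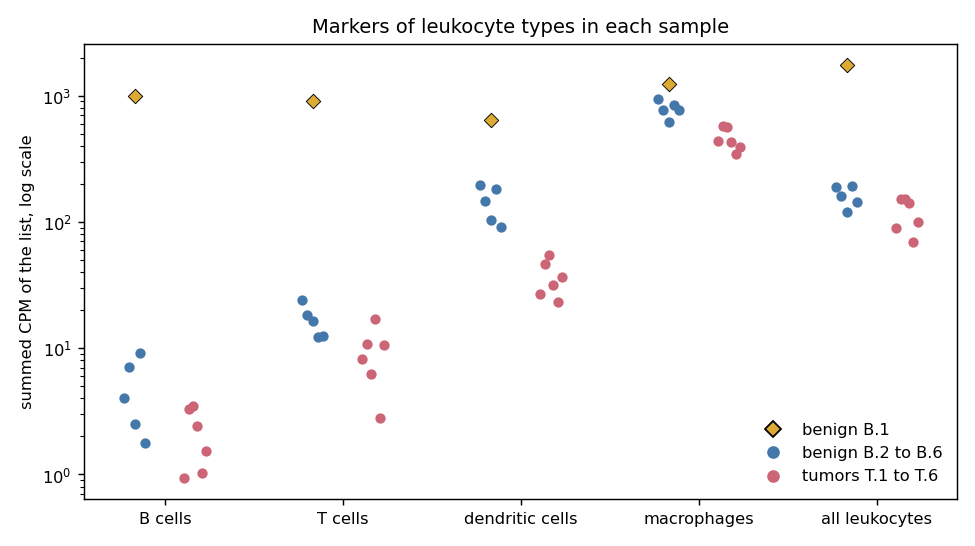
Summed CPM on a log axis of the markers of B cells, T cells, dendritic cells, macrophages and all leukocytes in B.1 (diamond), B.2 to B.6 (blue) and tumors (red). B.1 is far above the rest for B cells (993 against at most 9.12) and T cells (904 against at most 23.9), and tumors lie below all benign samples for dendritic cells and macrophages, for dendritic cells only with Fscn1 in the sum.

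Markers of the cells that carry class II were measured beside the members. Besides the B cell list, B.1 had 904 summed CPM over 10 T cell markers against 12.2 to 23.9 in the other benign samples and 2.81 to 17.1 in tumors. Of the B cell markers, 4 of 10 (Cr2, Fcer2a, Blk and Fcrla) were at or below 3 counts in every sample outside B.1. The lymph node stroma list, with 5 of its 6 genes deposited, summed to 1590 CPM in B.1, 160 to 490 CPM in B.2 to B.6 and 42.3 to 361 CPM in tumors. Its genes were not equally confined to B.1. Cxcl13 and Ccl19, chemokines of lymph node stroma, had 118 and 153 CPM in B.1 and at most 1.60 and 1.78 CPM elsewhere. Madcam1, of the same list, had 5.37 CPM in B.1 and up to 3.82 CPM in B.2 to B.6. The part of these cells in the members' values was not tested.

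The dendritic cell list, with 9 of its 10 genes deposited, summed to 638 CPM in B.1, 91.8 to 195 CPM in B.2 to B.6 and 23.1 to 54.3 CPM in tumors. Of 6 genes tested, 4 were lower in both fits, where 34.8% and 32.4% of all genes were lower. Among the 4 were Fscn1 (-3.57 and -2.89), Cd209a (-3.53 and -3.48) and Zbtb46 (-2.55 and -2.44). The others tested were not called: Itgax had a log2 fold change of 0.58 (adjusted p = 0.366) and 0.98 without B.1 (adjusted p = 0.129), and Siglech of -0.98 and 0.07. Fscn1, which other cells can also express, made up much of the sum, with 56.6 to 143 CPM in B.2 to B.6 and 10.1 to 15.8 CPM in tumors. Without it, a choice made after seeing the data, the sums were 33.9 to 51.9 CPM in B.2 to B.6 and 10.7 to 38.5 CPM in tumors, and overlapped. Zbtb46 made up much of the benign sums that remained, with 19.7 to 27.6 CPM in B.2 to B.6 and 3.30 to 5.37 CPM in tumors. With 28.5 CPM in B.1, it was little above the other benign samples there. Flt3 was not tested, with 18.3 CPM in B.1 and at most 1.55 CPM elsewhere. The 10 macrophage markers summed to 1240 CPM in B.1, 618 to 937 CPM in B.2 to B.6 and 342 to 579 CPM in tumors. Of these, 9 were lower with 12 samples and 8 without B.1, against 34.8% and 32.4% of all genes. Cd163 (-2.64), Mrc1 (-2.28) and Mertk (-1.62) were lowest, and Adgre1 was not called (-0.20, adjusted p = 0.440).

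The 6 leukocyte markers summed to 1758 CPM in B.1, 119 to 193 CPM in B.2 to B.6 and 69.7 to 152 CPM in tumors. All 6 were lower with 12 samples, and 2 were without B.1, against 34.8% and 32.4% of all genes. T.5 (69.7 CPM) and T.1 (90.0 CPM), the lowest tumors for the leukocyte sum, were also the lowest of the tumors for each of the 7 members. T.2 and T.3 (152 CPM each), the highest, held the highest tumor value of every member. Whether leukocyte content accounts for the order of the tumors was not tested.

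The members were next set against Ptprc in each sample, as the log2 ratio of gene to Ptprc, with an exact permutation test made for every gene. With 12 samples H2-DMb1 was higher relative to Ptprc (difference of 1.59, exact permutation p = 0.00216, adjusted p = 0.02005), as were 18.1% of genes, and 0 members were lower, against 7.34%. At an unadjusted p under 0.05 the exact permutation test likewise gave 0 lower members. Without B.1, where the median gene differed by -0.10, 5 members were lower, against 25.1% of genes, and H2-DMb1 was higher (difference of 1.10, adjusted p = 0.0110), against 17.2%. The differences were -1.35 for H2-Eb1 (adjusted p = 0.0171 by exact permutation), -1.28 for H2-Aa (0.0346), -1.24 for H2-Ab1 (0.0588), -1.12 for Cd74 (0.0889) and -0.61 for H2-DMa (0.0722). Ciita differed by -0.02 (adjusted p = 0.948).

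**Figure D5:**
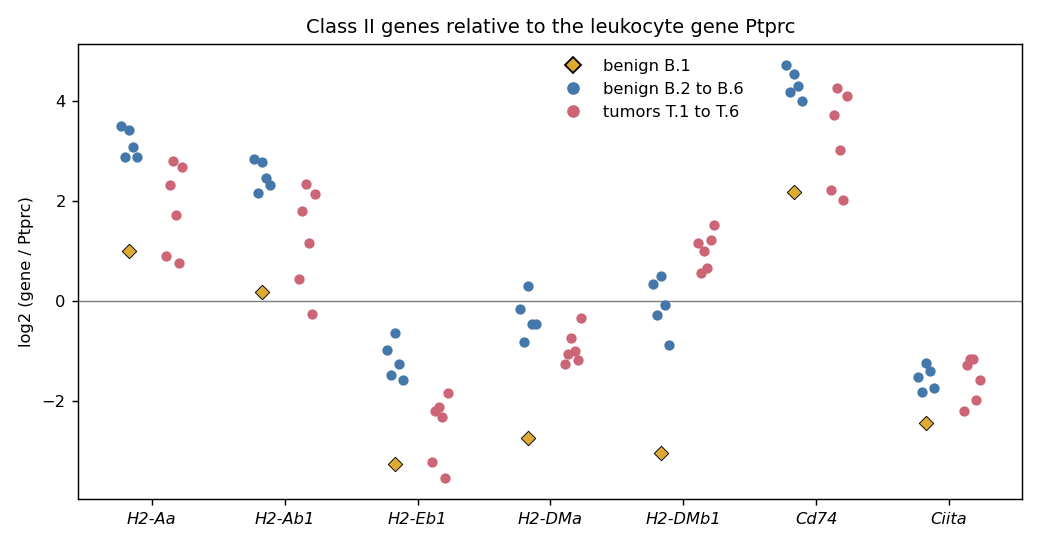
Log2 ratio of each class II gene to Ptprc in B.1 (diamond), B.2 to B.6 (blue) and tumors (red). B.1 is the lowest benign sample for each gene, at 0.997 for H2-Aa and -3.03 for H2-DMb1, and the tumors exceed all benign samples for H2-DMb1.

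In B.1 every member was low relative to Ptprc although its CPM was high: the log2 ratio of Cd74 to Ptprc was 2.19 there against a mean of 4.35 in B.2 to B.6 and 3.23 in tumors. The median gene differed by 0.63 in the ratio with 12 samples, so B.1 moved the reference as well as the members.

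The genes most like the members, by Pearson's r over 12 samples of log2 CPM less its group mean with the members' mean taken the same way, were Themis2 (0.967), Ets1 (0.952), Tmem168 (0.948), Neurl3 (0.947) and Parvg (0.946) among 10806 genes ranked. Over the 11 samples without B.1 they were Pianp (0.977), Lipa (0.971), Ets1 (0.970), Csnk1d (0.954) and Pkp1 (0.953). Ets1, a transcription factor of lymphocytes and endothelium, was in both lists, and was lower in tumors in both fits (log2 fold change -1.69, adjusted p = 0.00966, and -0.83, adjusted p = 0.00783). Lipa, the lysosomal acid lipase, was picked for its r over the 11 samples (0.971), and its r over 12 was 0.676. It was not called (-0.27, adjusted p = 0.460).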

How the data were processed

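The authors enriched poly A RNA from 12 tissues, made directional libraries, ran Salmon, and deposited the estimated count of each gene as whole numbers, not scaled for library size. Per the submitters' processing notes, Trim Galore, Salmon, DESeq2 and the build mm10 were used, and versions, annotation and Salmon's strand setting are not given in the sources used here. Samples were grouped by their labels, and 0 columns were left without a sample. Alleles of FVB class II genes that differ from the reference may lower their counts, and the effect was not tested.

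Deposited genes had sums of at least 5 counts. Genes were filtered by filterByExpr (min.count 10, min.total.count 15), TMM factors were applied, and groups were compared by edgeR 4.0.16 (R 4.3.3), quasi-likelihood, two-sided, with Benjamini-Hochberg adjustment over 13191 genes and a threshold of 0.1, after the study. The common biological coefficient of variation was 0.351. P-values measure the spread between these samples. Replicates differed by more than sampling noise (chi-square per degree of freedom at least 12.5). Ratios to Ptprc used log2 CPM with 2 added counts and an exact two-sided permutation over 924 regroupings (462 without B.1), whose smallest p is 0.00216. Correlations are Pearson's. edgeR was tested on simulated data. Coordinates and exon lengths are from GENCODE M21 (GRCm38), and promoters from RefSeq.

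The members and lists were chosen with earlier results of these data known. Named genes are the members, the first gene and the 3 largest called changes of each list, the genes most like the members with a mean of at least 10 CPM, and Erbb2, and 1 gene of the lists is not reported here. Outside this rule, neighbours and overlapping genes of the members, genes sharing the promoter arrangement, and Ccl19, Madcam1, Ifng, Ctss, Ctsd, Itgax, Siglech, Cr2, Fcer2a, Blk and Fcrla were named after their values were seen. Alternatives were DESeq2 1.42.0, upper quartile and total count scaling, other filters, a threshold of 0.05, 0.5 added counts, a replicate block, leaving out each sample and other references than Ptprc. Other lists were checked only as background: of 5 adipocyte and 5 endothelial markers all were lower in both fits, of 7 mammary epithelium markers 4 were higher and 3 lower in both, and of 6 plasma cell markers 3 were tested, with 1 higher and 1 lower. Of 6 lymph node stroma markers 1 was tested and was lower with 12 samples, and of 6 skeletal muscle markers 4 were tested and lower.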

Additional observations from a re-analysis of the deposited data

Results flagged for a closer look

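Each of the 7 members had a benign sample far from the others of its group, and it was B.1, the highest, each time: H2-Aa at 796 CPM, H2-Ab1 at 450 CPM, H2-Eb1 at 41.7 CPM, H2-DMa at 59.8 CPM, H2-DMb1 at 48.5 CPM, Cd74 at 1815 CPM and Ciita at 73.9 CPM. The gap from B.1 to the next sample, as a share of the group's range, ran from 0.628 for H2-DMb1 to 0.971 for Ciita, past the critical value of 0.625. Chance alone flags about 5% of groups, and 14 groups were examined here. The members were chosen with earlier results of these data known, so that share is no measure for the B.1 values. The 7 values come from 1 library and are not independent of each other. None of the tumor groups was set apart in this way.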

How the results depend on the processing

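H2-DMb1 was higher in tumors in every alternative fitted to H2-DMb1 alone, and H2-Eb1 was lower in every alternative in which it was tested (at 10 counts in every sample it was not). Leaving out 1 sample each, the members called lower ranged from 1 (without B.1) to 5, with 3 without T.1. Of all genes, 4208 (without T.4) to 4551 (without B.5) were called lower in these fits, and 4594 with 12 samples. B.1 out, the members called lower ranged from 1 to 3 (2 without T.2, 3 without T.3), and were 2 with DESeq2 and 2 with upper quartile scaling. Relative to Ptprc, members lower ranged from 0 to 5 (5 without B.1). Of all genes, 7.34% were lower relative to Ptprc with 12 samples and 25.1% without B.1. Members lower were 2 with Csf1r as reference, and members higher were 2 with the mean of the leukocyte list. The share of all genes is not given for these references or for the alternatives with B.1 out. Those counts are therefore no result about the members. Leaving out 1 sample each, the log2 fold change of Ciita ran from -1.46 to 0.27 (without B.1), the 1 reversal. With a replicate block the members called lower were 2, H2-Ab1, H2-DMa and Cd74 being lost (adjusted p = 0.108, 0.143 and 0.139). Of all genes, 4237 were called lower with that block. Replicate numbers did not pair the samples, which came from different mice (r from -0.124 to 0.103). Cd74 was not called at 0.05. H2-DMb1 and H2-DMb2 as 1 gene gave 0.41 with 12 samples (adjusted p = 0.450). The cause was not tested in any of these. Counts of 7 for H2-Eb1 limit its precision in the lowest tumors.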

Other observations

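The 5 class I genes that share the ordered X1 and Y cores with class II genes were not called lower in either fit. With 12 samples 34.8% of all genes were called lower and 28.2% higher, and without B.1 32.4% and 31.5%. So few genes set against these shares show no contrast with the class II genes. H2-Q7 was called higher in both, at a log2 fold change of 1.65 (adjusted p = 0.0782) and 2.25 without B.1 (adjusted p = 0.0261), and H2-Q6 was called higher without B.1 (1.59, adjusted p = 0.0591) and not with it (1.05, adjusted p = 0.194). H2-D1 (-0.05, adjusted p = 0.935), H2-M3 (-0.44, adjusted p = 0.492) and H2-Q4 (0.59, adjusted p = 0.295) were not called with 12 samples. H2-Q genes are close paralogs, so the division of reads among them is uncertain. Genes were picked by their promoter, after the members' values were seen.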
